A study of Sus scrofa with 36 samples.

Results

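The genes described here encode 10 enzymes that make sphingolipids and gangliosides in the cell: SPTLC1, SPTLC2, CERS2, CERS6, UGCG, SGMS1, ST3GAL5, ST8SIA1, B4GALNT1 and B3GALT4. They were taken by name from the sphingolipid pathway, and each was matched by its symbol to 1 Ensembl pig identifier among the 31907 in the count tables. RNA-seq was performed on the cerebellum of 36 pigs, with 1 library per piglet. Term-born Danish landrace × Yorkshire × Duroc piglets, either of normal birth weight (NBW) or growth restricted in the womb (IUGR), received from 3 days of age and for 3 weeks a formula whose fat came from vegetable oils (VEG) or from bovine cream (MILK). Each of the 4 groups held 9 piglets of both sexes: MILK-IUGR and MILK-NBW on the milk fat formula, and VEG-IUGR and VEG-NBW on the vegetable one. Both formulas held the same whey protein, casein, lactose and vitamin products, and no group fed by sows was included. The IUGR state was assigned from a low birth weight and the shape of the head, and litter is not in the labels.

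Sphingolipid synthesis starts in the endoplasmic reticulum, where serine palmitoyltransferase joins serine and palmitoyl-CoA and a ceramide synthase later adds a fatty acid of a given length to make ceramide. Ceramide is then turned into sphingomyelin, galactosylceramide or glucosylceramide, and glucosylceramide is the base of the gangliosides, glycolipids that carry sialic acid and are abundant in nerve cell membranes. Galactosylceramide and sulfatide with very long fatty acids are main lipids of myelin, the sheath that oligodendrocytes form around axons, and milk fat carries sphingomyelin and gangliosides of its own.

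The values below come from 33 libraries, 8 in each of VEG-NBW, VEG-IUGR and MILK-NBW and 9 in MILK-IUGR, from 16 females and 17 males. Piglets 202 (VEG-NBW), 210 (VEG-IUGR) and 213 (MILK-NBW) were left out because their share of read pairs not assigned to a gene stood apart in their groups, at 43.6%, 64.3% and 31.5% against 26.7 to 30.5% in the other libraries. In piglet 210, 7 of the 10 genes had no count at all. The 33 libraries held 15516541 to 23027502 read pairs on genes. Counts were scaled to CPM, the count of a gene relative to its library's total in megacounts, with the total adjusted by TMM normalisation, and the smallest count of any of the 10 genes in these libraries was 149, for B3GALT4. The tissue label fitted its markers, since the granule neuron gene GABRA6 had a median of 298.5 CPM and the Purkinje cell gene PCP2 a median of 411.9 CPM. Choroid plexus markers summed to 4.18 to 1603 CPM and red blood cell markers to 1.73 to 57.7 CPM, and their part in the results was not tested.

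All 10 genes were expressed in every one of the 33 libraries and passed the filter on low counts. None of the 10 genes passed the threshold for diet, for birth weight or for their interaction (edgeR, Benjamini-Hochberg adjusted p under 0.05 over 15356 genes). The same was true of all genes tested, of which 0.0% passed in each of these comparisons, and likewise in each of the 4 contrasts between groups. DESeq2 called 2 genes for the interaction and 2 in each contrast between the diets in NBW piglets and between the birth weights on MILK, none of them among the 10. At an unadjusted p under 0.05, diet gave 2 of the 10 genes against 4.26% of all genes, birth weight gave 0 against 2.19%, and the interaction gave 1 against 6.09%. Among the contrasts, MILK-NBW against VEG-NBW gave 0 of 10 (6.67% of all genes), MILK-IUGR against VEG-IUGR 1 (3.9%), VEG-IUGR against VEG-NBW 1 (2.29%) and MILK-IUGR against MILK-NBW 0 (6.24%). The median absolute log2 fold change of the 10 genes was 0.05 for diet, the same as for all genes, 0.03 against 0.04 for birth weight, and 0.10 against 0.12 for the interaction. The data are from whole tissue, in which fewer cells of a type and less RNA per cell cannot be told apart.

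**Figure D1:**
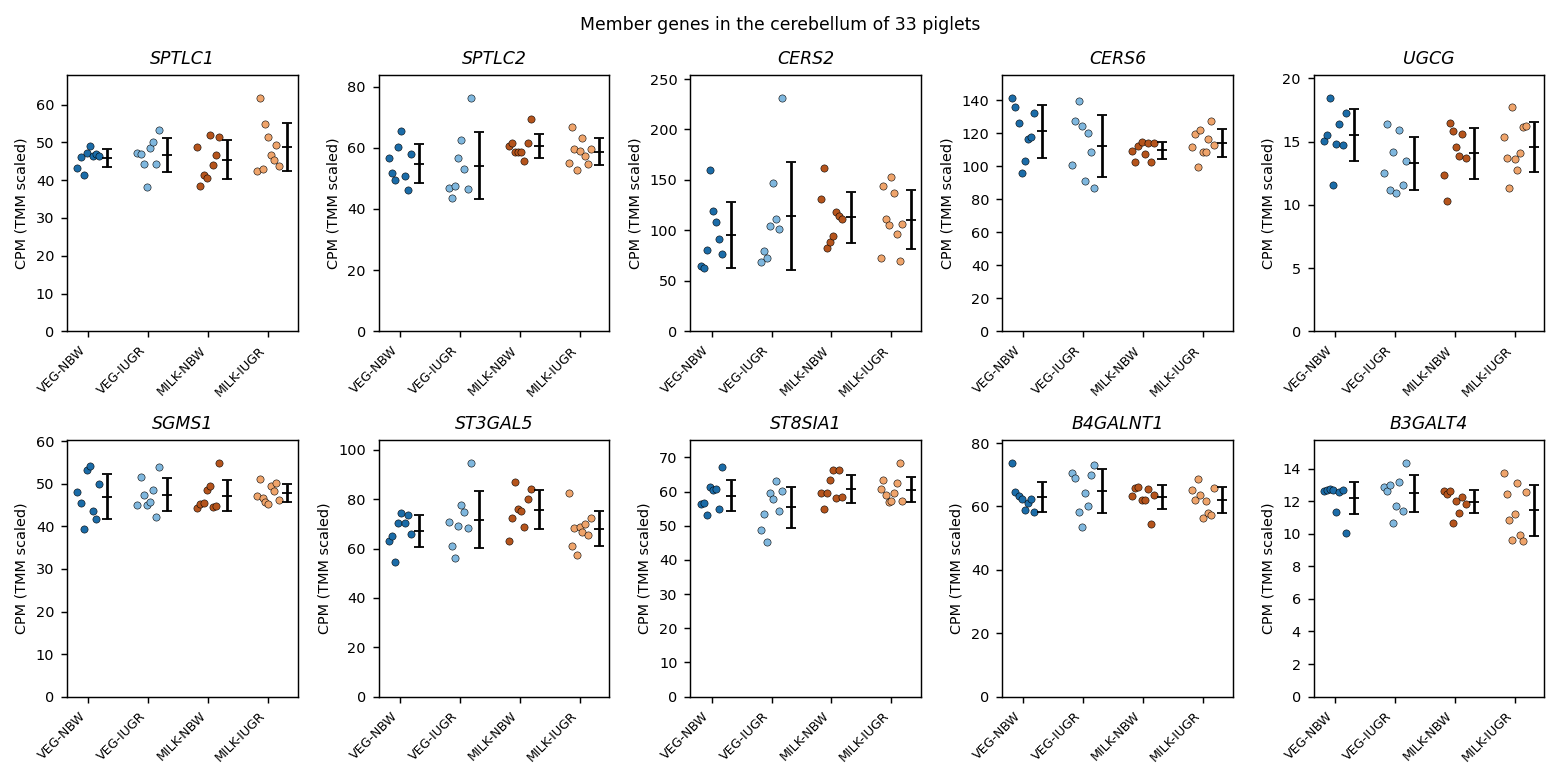
Expression of the 10 genes in the cerebellum of 33 piglets, with 1 point per piglet (y axis, CPM after TMM scaling, from 0) by group (x axis, 8 or 9 piglets each), and the mean with SD as a bar beside the points. The 4 groups overlap for every gene, and CERS2 has the widest spread, from 62.4 to 231.3 CPM.

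Serine palmitoyltransferase, which carries out the first and rate-limiting step of sphingolipid synthesis, was represented by its subunits SPTLC1 and SPTLC2. SPTLC1 (ENSSSCG00000009594, Sscrofa11.1 chr14:3081964-3138113) encodes the subunit without catalytic lysine that holds the complex together. Its lowest, median and highest values were 41.4, 46.4 and 49.1 CPM in VEG-NBW, 38.2, 47.1 and 53.3 in VEG-IUGR, 38.4, 45.4 and 51.8 in MILK-NBW, and 42.3, 46.7 and 61.8 in MILK-IUGR. The medians lay close together, and the single high value was piglet 207 of MILK-IUGR. The log2 fold change of SPTLC1 was 0.02 (SE 0.05) for MILK relative to VEG and 0.07 (SE 0.05) for IUGR relative to NBW. Its largest contrast was MILK-IUGR relative to MILK-NBW, with a log2 fold change of 0.12 (SE 0.07).

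SPTLC2 (ENSSSCG00000002404, chr7:100545360-100638973) encodes the catalytic subunit and had the largest diet estimate of the 10 genes. Across piglets the lowest, median and highest values of SPTLC2 were 46.0, 54.2 and 65.6 CPM in VEG-NBW, 43.6, 50.2 and 76.3 in VEG-IUGR, 55.6, 59.6 and 69.3 in MILK-NBW, and 52.7, 59.0 and 66.8 in MILK-IUGR. All 17 MILK piglets lay above the median of the 16 VEG piglets, 52.3 CPM, but the diets overlapped, since the highest value of all belonged to VEG-IUGR piglet 227. The log2 fold change for MILK relative to VEG was 0.13 (SE 0.06), a difference of 9.35% with a 95% interval of 0.732 to 18.7% (unadjusted p = 0.0337, adjusted p = 0.985). The estimate was alike at both birth weights, with a log2 fold change of 0.14 (SE 0.09) between the NBW groups and 0.12 (SE 0.08) between the IUGR groups, and the interaction was -0.01 (SE 0.12). Birth weight gave a log2 fold change of -0.03 (SE 0.06). Without piglet 227, left out after the data had been seen, the diet estimate of SPTLC2 was 0.17 (SE 0.05, unadjusted p = 0.0018, adjusted p = 0.734).

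Ceramide synthases differ in the length of the fatty acid that they attach. CERS2 (ENSSSCG00000006644, chr4:98250773-98260504), which makes ceramides with very long fatty acids, varied more between piglets than any other of the 10 genes. Expression of CERS2 had a lowest, median and highest value of 62.4, 86.1 and 159.7 CPM in VEG-NBW, 68.5, 103.3 and 231.3 in VEG-IUGR, 82.5, 112.8 and 161.9 in MILK-NBW, and 69.6, 106.5 and 152.8 in MILK-IUGR. The highest piglet, 227 of VEG-IUGR, had 3.71 times the value of the lowest, 205 of VEG-NBW. The coefficient of variation over the 33 piglets was 33%, against 7.75% (SGMS1) to 14.6% (UGCG) for the others. For CERS2 the log2 fold change for MILK relative to VEG was 0.10 (SE 0.15), with a 95% interval of -13.2 to 31.7%. For IUGR relative to NBW it was 0.12 (SE 0.15), and for the interaction -0.28 (SE 0.30). The birth weight and interaction estimates rested on piglet 227, without which they were 0.01 (SE 0.13) and -0.07 (SE 0.26), and the diet estimate was 0.21 (SE 0.13, unadjusted p = 0.12). The annotated span of CERS2 overlaps that of SETDB1, and since the strand setting of the counting is not given in the sources used here, reads of the 2 genes may not be fully separated.

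CERS6 (ENSSSCG00000032715, chr15:74927088-75261558) makes ceramides with shorter fatty acids, such as palmitic acid. Its lowest, median and highest values were 95.8, 122.0 and 141.5 CPM in VEG-NBW, 86.7, 114.5 and 139.5 in VEG-IUGR, 102.5, 110.8 and 114.6 in MILK-NBW, and 99.6, 113.2 and 127.7 in MILK-IUGR. The medians differed little, but the VEG piglets were spread on both sides of the MILK piglets. All 8 MILK-NBW piglets lay below the median of VEG-NBW, and the log2 fold change between these groups was -0.14 (SE 0.08, unadjusted p = 0.104). Over both birth weights the log2 fold change for MILK relative to VEG was -0.05 (SE 0.06), and for IUGR relative to NBW it was -0.03 (SE 0.06). The interaction was 0.16 (SE 0.11).

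Of the enzymes that use ceramide, UGCG and SGMS1 were among the 10 genes. UGCG (ENSSSCG00000022780, chr1:252651850-252690817) encodes glucosylceramide synthase, the first step towards the gangliosides. Across piglets the lowest, median and highest values of UGCG were 11.6, 15.3 and 18.4 CPM in VEG-NBW, 10.9, 13 and 16.4 in VEG-IUGR, 10.3, 14.2 and 16.5 in MILK-NBW, and 11.3, 14.1 and 17.7 in MILK-IUGR. VEG-IUGR had the lowest median, and 6 of its 8 piglets lay below the median of VEG-NBW. Relative to VEG-NBW, VEG-IUGR had a log2 fold change of -0.22 (SE 0.11), a difference of -14.4% with a 95% interval of -26.2 to -0.638% (unadjusted p = 0.0414, adjusted p = 0.9996). Between the MILK groups the log2 fold change for IUGR relative to NBW was 0.04 (SE 0.10), and the test of the difference, the interaction, gave 0.27 (SE 0.15, unadjusted p = 0.079, adjusted p = 0.785). The main effects of diet and birth weight on UGCG were 0.00 (SE 0.08) and -0.09 (SE 0.08) on the log2 scale.

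SGMS1 (ENSSSCG00000010433, chr14:99147266-99458111) encodes the sphingomyelin synthase of the Golgi apparatus and varied little between piglets, with a coefficient of variation of 7.75%. Expression of SGMS1 had a lowest, median and highest value of 39.5, 46.8 and 54.1 CPM in VEG-NBW, 42.2, 46.6 and 54.0 in VEG-IUGR, 44.4, 45.5 and 54.9 in MILK-NBW, and 45.3, 47.3 and 51.1 in MILK-IUGR. The log2 fold change was 0.01 (SE 0.04) for diet, with a 95% interval of -5.29 to 6.6%, and 0.02 (SE 0.04) for birth weight, with an interval of -4.43 to 7.62%. The interaction was 0.01 (SE 0.09), and the largest contrast between groups, MILK-IUGR relative to MILK-NBW, was 0.02 (SE 0.06). The groups overlapped over most of their ranges.

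Gangliosides are built on lactosylceramide by sialyltransferases and sugar transferases of the Golgi apparatus. ST3GAL5 (ENSSSCG00000008227, chr3:58862984-58919554) adds the first sialic acid and so makes GM3, the parent of the other common gangliosides of the brain. Its lowest, median and highest values were 54.5, 68.0 and 74.4 CPM in VEG-NBW, 56.3, 70.0 and 94.6 in VEG-IUGR, 62.9, 75.5 and 86.9 in MILK-NBW, and 57.2, 68.5 and 82.7 in MILK-IUGR. MILK-NBW had the highest median. In that group 7 of 8 piglets lay above the median of VEG-NBW, and 8 of 9 MILK-IUGR piglets lay below the median of MILK-NBW. The log2 fold change for MILK relative to VEG was 0.17 (SE 0.08, unadjusted p = 0.0515) in NBW piglets and -0.07 (SE 0.08) in IUGR piglets. The interaction of ST3GAL5 was -0.24 (SE 0.12), or -15.5% with a 95% interval of -28.5 to -0.187%, and did not pass the adjustment (unadjusted p = 0.0476, adjusted p = 0.784). Without piglet 227, which holds the highest value, the interaction was -0.18 (SE 0.11, unadjusted p = 0.0983). The main effects were 0.05 (SE 0.06) for diet and -0.03 (SE 0.06) for birth weight.

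ST8SIA1 (ENSSSCG00000031329, chr5:51211312-51364226) adds a second sialic acid to GM3 to make GD3, the start of the b-series gangliosides. Across piglets the lowest, median and highest values of ST8SIA1 were 53.0, 58.6 and 67.2 CPM in VEG-NBW, 45.3, 56.1 and 63.2 in VEG-IUGR, 54.8, 59.5 and 66.4 in MILK-NBW, and 56.9, 59.5 and 68.3 in MILK-IUGR. The values below 50 CPM were all from VEG-IUGR piglets, and all 9 MILK-IUGR piglets lay above the median of VEG-IUGR. The log2 fold change for MILK relative to VEG was 0.09 (SE 0.04), a difference of 6.54% with a 95% interval of 0.35 to 13.1% (unadjusted p = 0.0387, adjusted p = 0.985). It was 0.13 (SE 0.06, unadjusted p = 0.037, adjusted p = 0.996) in IUGR piglets and 0.05 (SE 0.06) in NBW piglets, and the test of that difference, the interaction, gave 0.08 (SE 0.09, unadjusted p = 0.371). Birth weight gave a log2 fold change of -0.05 (SE 0.04).

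B4GALNT1 (ENSSSCG00000000433, chr5:22889654-22897386) adds N-acetylgalactosamine and makes GM2 and GD2. Expression of B4GALNT1 had a lowest, median and highest value of 58.3, 62.4 and 73.7 CPM in VEG-NBW, 53.6, 66.7 and 73.2 in VEG-IUGR, 54.5, 63.5 and 66.2 in MILK-NBW, and 56.4, 62.0 and 68.5 in MILK-IUGR. Its log2 fold change was -0.03 (SE 0.04) for diet, 0.01 (SE 0.04) for birth weight and -0.06 (SE 0.08) for the interaction, and no contrast exceeded 0.07 in size. B3GALT4 (ENSSSCG00000001503, chr7:29643049-29644847) adds the following galactose and makes GM1 and GD1b. Its lowest, median and highest values were 10.04, 12.6 and 12.8 CPM in VEG-NBW, 10.7, 12.7 and 14.3 in VEG-IUGR, 10.6, 12.1 and 12.6 in MILK-NBW, and 9.56, 11.2 and 13.7 in MILK-IUGR. Of the 17 MILK piglets, 15 lay below the median of the VEG piglets, but the medians were close, at 12.03 and 12.66 CPM. The diets overlapped, and MILK was higher in 29% of pairs of a MILK and a VEG piglet. For diet the log2 fold change of B3GALT4 was -0.08 (SE 0.06), with a 95% interval of -12.3 to 2.5% (unadjusted p = 0.174). It was -0.01 (SE 0.06) for birth weight and -0.10 (SE 0.11) for the interaction, and the largest contrast was 0.13 in size.

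**Figure D2:**
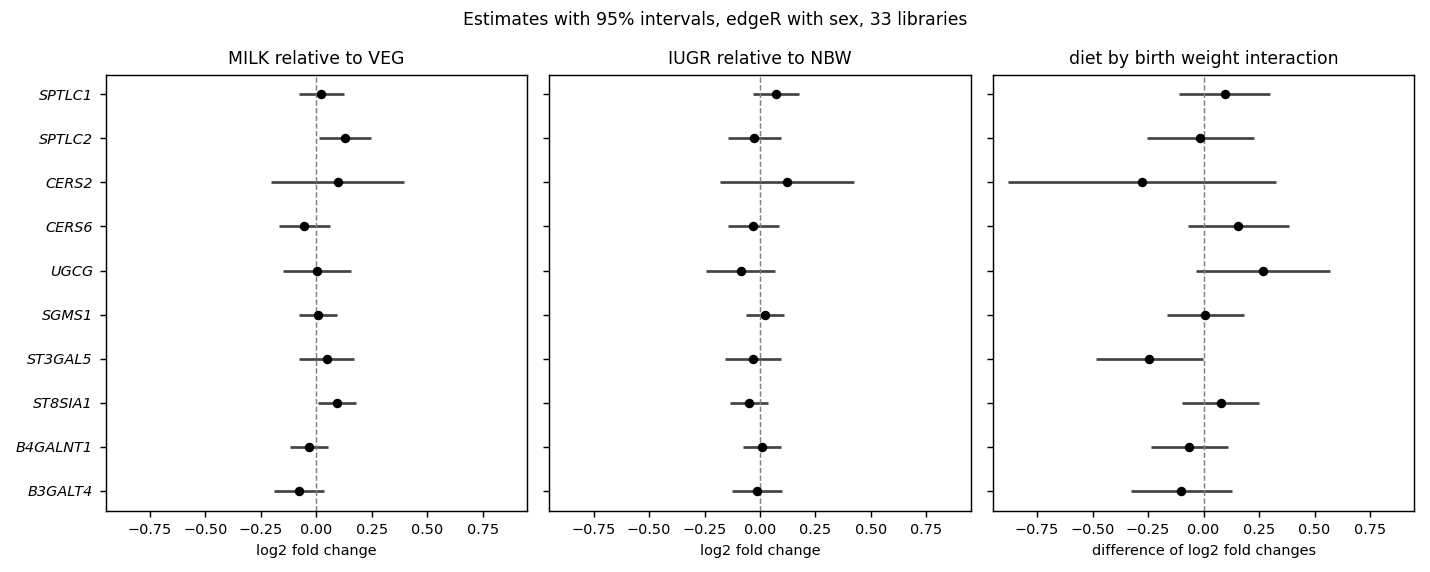
Log2 fold changes of the 10 genes for MILK relative to VEG, for IUGR relative to NBW, and for their interaction (x axes), each with its 95% interval from edgeR with sex as a covariate. Only SPTLC2 and ST8SIA1 for diet and ST3GAL5 for the interaction have intervals that do not reach 0 before adjustment, and CERS2 has the widest intervals.

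Sex was a term of every fit. None of the 10 genes differed between males and females at an unadjusted p under 0.05, against 2.94% of all genes, and none after adjustment, against 0.163% of all genes (25 genes). The largest sex estimate was that of CERS2, with a log2 fold change of 0.14 (SE 0.15) for males relative to females, and the smallest p was that of SPTLC1, at 0.09 (SE 0.05, unadjusted p = 0.0854).

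Since CERS2 makes the very long ceramides of myelin, its level in each piglet was set beside a score of oligodendrocyte markers, the mean standardised log2 CPM of 9 genes (among them MBP, MOG, MAG, CNP, CLDN11, OPALIN, ERMN and ASPA). These markers, which encode myelin proteins or enzymes of oligodendrocytes, summed to between 8856 and 49470 CPM in the 33 piglets. CERS2 followed the score almost without scatter, with Pearson r = 0.983 and Spearman rho = 0.98 over 33 piglets (permutation p = 1e-05 for both, the smallest that 100000 permutations can give, adjusted p = 0.0004 over 40 relations for r). The relation held without the 2 piglets farthest from the median score (r = 0.979), in females (r = 0.98) and in males (r = 0.989). Within the groups r was 0.991 in VEG-NBW, 0.986 in VEG-IUGR, 0.976 in MILK-NBW and 0.987 in MILK-IUGR. When all 12506 other genes with a symbol were ranked by their Spearman correlation with CERS2, CLDN11 (rho = 0.983) and MBP (0.967), both of the oligodendrocyte list, were among the first 3. CLDN11 forms the tight junctions of myelin, and MBP compacts its membranes.

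The estimates of most markers had the sign of the CERS2 estimate for diet, birth weight and the interaction, but not in every contrast. Between the diets in IUGR piglets CERS2 was at -0.04 (SE 0.21), while 7 of 9 oligodendrocyte markers were above 0 (median 0.02). Between the birth weights on MILK it was at -0.01 (SE 0.21), again with 7 of 9 above 0 (median 0.01). Both CERS2 estimates were small beside their SE, so these signs do not show that CERS2 and the markers parted. For diet the estimates of 9 of 9 oligodendrocyte markers were above 0, with a median log2 fold change of 0.14, for birth weight 9 of 9 were above 0 (median 0.15), and for the interaction 1 of 9 was above 0 (median -0.21). None of the 9 had an unadjusted p under 0.05 for diet, birth weight or the interaction. The markers and CERS2 vary together in the same piglets, so the shared signs are not independent of the correlation above and add no support. With the marker score as a covariate, an alternative chosen after the data had been seen, the CERS2 estimates were -0.05 (SE 0.03) for diet, -0.00 (SE 0.03) for birth weight and -0.06 (SE 0.06) for the interaction, so that the standard error for diet was 0.03 in place of 0.15. The diet estimate of SPTLC2 was then 0.09 (SE 0.05, unadjusted p = 0.0653) and that of ST8SIA1 0.08 (SE 0.04, unadjusted p = 0.0623). Whether piglets with higher values had more oligodendrocytes, more myelin RNA per cell or more white matter in the sample cannot be told apart.

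**Figure D3:**
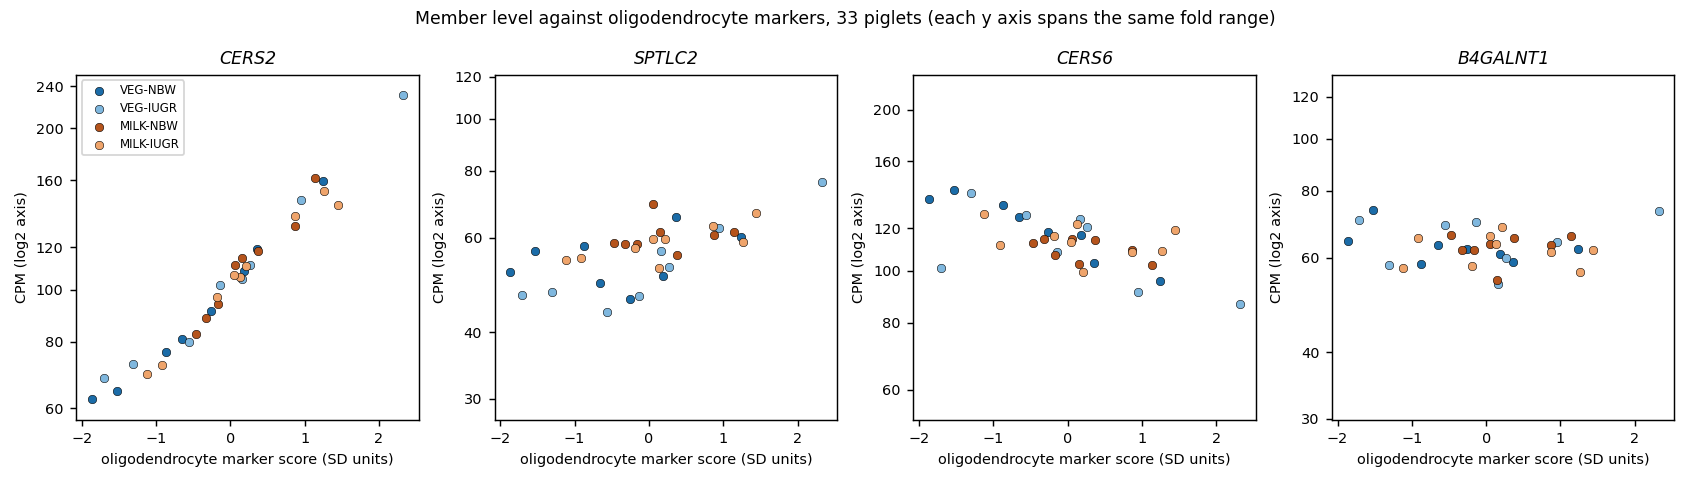
CPM of CERS2, SPTLC2, CERS6 and B4GALNT1 (y axes, log2 scale, each spanning the same fold range) against the oligodendrocyte marker score (x axes, mean of standardised log2 CPM), with 1 point per piglet coloured by group, 33 piglets. CERS2 lies along a line (r = 0.983), SPTLC2 (r = 0.651) and CERS6 (r = -0.668) run up and down with more scatter, and B4GALNT1 is flat (r = -0.056).

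The other 9 genes were related to the oligodendrocyte score less closely or not at all. SPTLC2 was higher in piglets with a high score (r = 0.651, rho = 0.668, adjusted permutation p = 0.000629 for r and 0.0003 for rho, r = 0.567 without the 2 farthest piglets), but within groups r was 0.329 in VEG-NBW, 0.892 in VEG-IUGR, 0.127 in MILK-NBW and 0.753 in MILK-IUGR. CERS6, the ceramide synthase for shorter chains, ran opposite to CERS2. Its r with the score was -0.668 and rho -0.586 (adjusted permutation p = 0.0006 and 0.00195, r = -0.546 without the 2 farthest piglets), with the same sign in every group, from -0.956 in VEG-NBW to -0.313 in MILK-IUGR. CERS2 and CERS6 correlated with each other at r = -0.722 (rho = -0.642, adjusted permutation p = 0.000675 for r over 45 pairs of genes, r = -0.62 without 2 piglets). None of the other 7 genes passed with the oligodendrocyte score on r, and of these UGCG passed on rho (-0.458, adjusted permutation p = 0.0253).

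Scores of granule neurons, Purkinje cells, and astrocytes with Bergmann glia, the other main cell types of the cerebellum, were built in the same way. Of the 40 relations of 10 genes and 4 scores, 14 passed on Pearson's r (adjusted permutation p under 0.05), 6 positive and 8 negative, and 13 of these also on Spearman's rho. The smallest r that passed was 0.418 in size, and over all genes tested, leaving out each score's own markers, 19.6% of relations with the 4 scores reached that size, 17.4% with oligodendrocytes, 28.6% with granule neurons, 4.6% with Purkinje cells and 27.8% with astrocytes and Bergmann glia. Of the 10 genes 3, 6, 1 and 4 passed in that order. SPTLC2 was lower in piglets with high granule neuron markers (r = -0.706, rho = -0.745) and did so in every group, from -0.664 to -0.821. CERS6 and UGCG were higher in such piglets (r = 0.622 and 0.504). CERS2 (r = -0.606), SGMS1 (r = -0.556) and ST3GAL5 (r = -0.494) were lower. The relation of ST3GAL5 did not pass on rho (-0.386, adjusted permutation p = 0.0726). In females r was 0.201, 0.349, -0.327, -0.054 and -0.036 for these genes in that order. In males it was 0.719, 0.629, -0.693, -0.697 and -0.591. By group the sign turned for CERS6 in MILK-NBW (-0.175), SGMS1 in VEG-IUGR (0.019) and ST3GAL5 in MILK-IUGR (0.095). CERS2 was at -0.059 in MILK-NBW. With the Purkinje cell score only CERS2 passed (r = -0.418, rho = -0.455, adjusted permutation p = 0.0454 for r). With the astrocyte and Bergmann glia score, SPTLC2 (r = 0.656) and CERS2 (0.612) were positive, and UGCG (-0.624) and CERS6 (-0.538) were negative. SPTLC1, ST8SIA1, B4GALNT1 and B3GALT4 passed with none of the 4 scores. The 4 scores are not independent of each other. CERS2, at r = 0.983 with the oligodendrocyte score, stood at -0.606, -0.418 and 0.612 with the other scores. The relations that passed are therefore not separate results for each cell type. The scores and genes share the scaling of each library, and the part of this in the relations was not tested. With all 36 libraries, piglet 210 among them, many of these signs turned, and r of SPTLC2 and CERS2 with the granule neuron score was 0.947 and 0.906, and of CERS6 with the oligodendrocyte score 0.523.

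**Figure D4:**
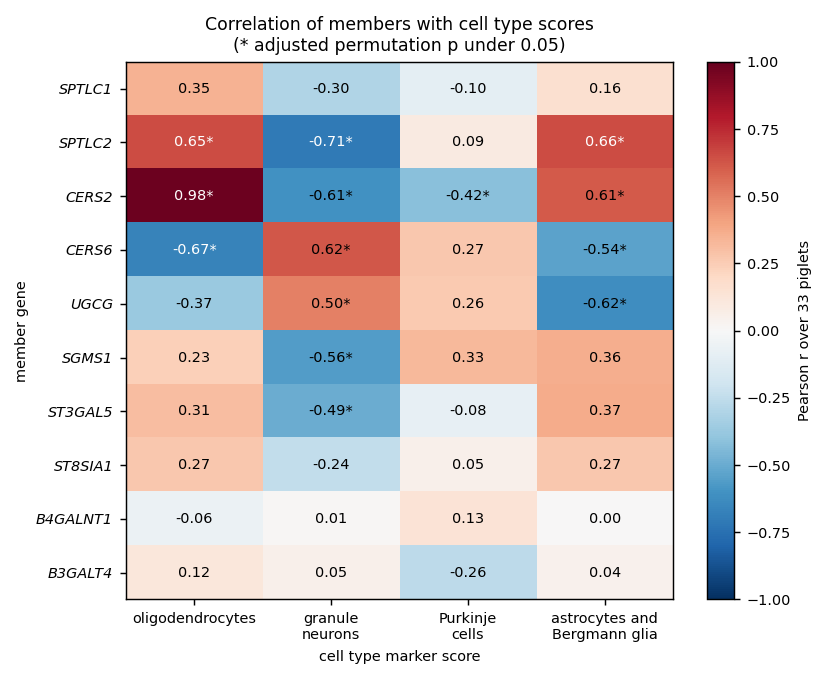
Pearson correlation over 33 piglets of each of the 10 genes (rows) with the scores of 4 cell types (columns), coloured from -1 to 1, with an asterisk where the adjusted permutation p was under 0.05. The marked cells belong to SPTLC2, CERS2, CERS6 and UGCG, apart from 1 each of SGMS1 and ST3GAL5 with granule neurons, and SPTLC1, ST8SIA1, B4GALNT1 and B3GALT4 have none.

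Among the 45 pairs of the 10 genes, 9 passed on r, 5 positive and 4 negative, and 6 of these also on rho. Of all pairs of the 15356 genes, 8.04% reached the smallest r that passed, 0.457 in size. The positive pair with the highest r was SPTLC2 with CERS2 (r = 0.66, rho = 0.718), followed by SPTLC2 with SGMS1 (0.546), ST8SIA1 (0.513) and ST3GAL5 (0.511), none of which passed on rho, and by CERS6 with UGCG (r = 0.506, rho = 0.57). Apart from CERS2 with CERS6, the negative pairs were CERS6 with ST3GAL5 (r = -0.619) and with SPTLC2 (-0.515), and CERS2 with UGCG (-0.457). SPTLC1 and SPTLC2, whose products form 1 enzyme, were not among the pairs that passed. The genes most like the other members by Spearman's rho over the 33 piglets included RAD51B (0.863) for SPTLC2, GALNT7 (0.87) for CERS6, C11orf58 (0.835) for SPTLC1, PLEKHA8 (0.797) for UGCG, EIF5A2 (0.776) for SGMS1, RORB (0.77) for ST8SIA1, CACNG4 (0.768) for ST3GAL5, NOSIP (0.729) for B4GALNT1 and LSM2 (0.615) for B3GALT4, in each case the first of 12506 genes.

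The wider pathway was covered by lists of 63 genes for ceramide synthesis, ceramide use, glycolipid synthesis and breakdown, of which 57 passed the filter. None of the 57 passed the adjusted threshold in any comparison. At an unadjusted p under 0.05, 5 of 57 were found for diet (3 higher and 2 lower in MILK), 0 for birth weight and 4 for the interaction (1 positive and 3 negative), against the shares of all genes given above. The 3 smallest p for diet belonged to NEU4, a sialidase that removes sialic acid from gangliosides, with a log2 fold change of 0.27 (SE 0.10, unadjusted p = 0.0119), to B4GALT5, a lactosylceramide synthase, at 0.12 (SE 0.05, unadjusted p = 0.0199), and to CERT1, the protein that carries ceramide to the Golgi apparatus, at 0.16 (SE 0.07, unadjusted p = 0.0345). NEU4 was a low gene, with means ± SD of 5.23 ± 0.73 CPM in VEG-NBW, 4.76 ± 1.16 in VEG-IUGR, 6.53 ± 0.93 in MILK-NBW and 5.53 ± 1.24 in MILK-IUGR. For birth weight, the sphingosine kinase SPHK2 (-0.08, SE 0.05) and NEU4 (-0.18, SE 0.10) were among the 3 genes of smallest p. For the interaction they were those of CERS1, the ceramide synthase of neurons (-0.38, SE 0.15, unadjusted p = 0.0174), the sialyltransferase ST3GAL3 (-0.28, SE 0.11, unadjusted p = 0.0185) and the CMP-sialic acid transporter SLC35A1 (0.23, SE 0.09, unadjusted p = 0.0219). The mean of CERS1 was 81.5 ± 12.5 CPM in VEG-NBW, 90.1 ± 13.7 in VEG-IUGR, 87.7 ± 8.68 in MILK-NBW and 74.3 ± 14.1 in MILK-IUGR.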

How the data were processed

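Cerebellar total RNA of 36 piglets was sequenced as paired-end reads on a NovaSeq instrument. The files deposited hold unnormalized counts per Ensembl gene, 1 file a piglet, and 5 closing rows for reads without a gene (26.7 to 30.5% in the 33 libraries used), which were kept out of library sizes and tests. The submitters' processing notes name Trim Galore, HISAT2, HTSeq, DESeq2 and Sscrofa11.1. Neither the release of the annotation nor strandedness in counting is given in the sources used here. Positions are RefSeq spans on Sscrofa11.1, and 15029 of 31907 identifiers had a symbol. The study left out 3 libraries of low RNA integrity, 1 in each of the groups of piglets 202, 210 and 213, without naming them. The 3 libraries left out here were chosen by Dixon's rule on unassigned reads, and may not be the same.

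Tests were edgeR 4.0.16 quasi-likelihood F tests in R 4.3.3, after filterByExpr with a minimum count of 10 and TMM scaling, with sex in each model. The main effects were taken from a fit without their interaction, and the interaction, the contrasts and sex in a model of the 4 group means. P-values were adjusted over 15356 genes and called under 0.05. DESeq2 1.42.0 and limma 3.58.1 (voom with quality weights), DESeq2's size factors, other filters, no sex term, only the 2 groups compared and all 36 libraries were the alternatives. Correlations used log2 CPM (prior count of 2) and 100000 permutations. The tests were tested on simulated data. The diet changes put into the simulated counts for edgeR were all larger than any diet estimate of the 10 genes. They do not show whether changes as small as those estimates could be called. The genes and lists were chosen with earlier results of these data known. All 10 genes are reported, with, by rule, the 3 genes of the wider lists of smallest p and the genes most alike by Spearman's rho. Some genes that the rule names are not reported here. Piglets are separate animals, but littermates could not be identified. No columns of other samples were present. Intervals are for the estimated difference and rest on the spread between piglets, with no term for litter.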

Additional observations from a re-analysis of the deposited data

Results flagged for a closer look

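In each of the 40 sets of 1 gene in 1 group, the highest and the lowest piglet were compared with the rest by Dixon's test, which chance passes in about 1 of 20 sets. The test set apart 3 values, all in NBW groups. SPTLC2 was at 69.3 CPM in piglet 234 of MILK-NBW, against 55.6 to 61.5 in the other 7 piglets. B4GALNT1 was at 73.7 CPM in piglet 200 of VEG-NBW, against 58.3 to 64.6, and at 54.5 CPM in piglet 230 of MILK-NBW, against 62.0 to 66.2. The share of read pairs not assigned to a gene was 43.6% in piglet 202 of VEG-NBW, 64.3% in piglet 210 of VEG-IUGR and 31.5% in piglet 213 of MILK-NBW, and each stood apart in its group. Piglet 227 of VEG-IUGR, with the highest CERS2, SPTLC2 and ST3GAL5, was not set apart by this test. Its CERS2 was nevertheless at 231.3 CPM, against 68.5 to 146.8 in the rest of its group.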

How the results depend on the processing

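None of the 10 genes was called in any comparison under any alternative. Genes called over the whole table, 0 in the fit reported, were 2 by DESeq2 for the interaction, 2 by DESeq2 and 1 by voom for MILK-NBW against VEG-NBW, and for MILK-IUGR against MILK-NBW 2 by DESeq2 and 1 each by voom, with DESeq2's size factors, with at least 10 counts in every library and without a sex term. For sex, 25 genes were called in the fit reported, 16 higher and 9 lower in males. With at least 10 counts in every library 7 were called, 0 higher and 7 lower. That filter drops any gene without counts in 1 sex, so the smaller number does not show that the other calls were unstable. No paired analysis was possible because the labels number each piglet once, so no replicate number is shared between groups. Levels per kb were not run, since no transcript lengths were at hand.

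With all 36 libraries, which shifted the median log2 fold change of all genes by up to 0.14 (interaction), estimates changed sign for diet in CERS6 (0.035), SGMS1 (-0.0063) and B4GALNT1 (0.040), for birth weight in SPTLC1 (-0.025), SGMS1 (-0.0031), B4GALNT1 (-0.079) and B3GALT4 (0.33), for the interaction in SPTLC2 (0.15), SGMS1 (-0.014) and B4GALNT1 (0.14), between the diets in IUGR piglets in CERS2 (0.15) and ST3GAL5 (0.11), between the birth weights on VEG in SPTLC1 (-0.17) and ST3GAL5 (-0.044), and on MILK in SPTLC2 (0.017) and ST8SIA1 (0.076). The contrasts of SGMS1 (-0.013 between the diets in IUGR piglets, -0.010 on MILK), B4GALNT1 (0.11 between the diets in IUGR piglets, -0.15 on VEG) and B3GALT4 (0.08 between the diets in NBW piglets) also changed sign, and under other alternatives further contrasts of SGMS1 and B4GALNT1, whose estimates lay near 0, did so. The correlations that changed sign were, for SPTLC1, granule neurons 0.96 and Purkinje cells 0.781, for SPTLC2 granule neurons 0.947, for CERS2 granule neurons 0.906 and Purkinje cells 0.731, for CERS6 oligodendrocytes 0.523 and astrocytes 0.893, for UGCG oligodendrocytes 0.517 and astrocytes 0.882, for SGMS1 oligodendrocytes -0.086, Purkinje cells -0.15 and astrocytes -0.227, for ST3GAL5 granule neurons 0.953 and Purkinje cells 0.798, for ST8SIA1 granule neurons 0.822, for B4GALNT1 oligodendrocytes 0.562, and for B3GALT4 oligodendrocytes -0.503, granule neurons -0.919 and astrocytes -0.866.

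Voom turned the diet estimates of SPTLC1 (-0.026), UGCG (-0.019) and SGMS1 (-0.0030) and the SPTLC2 interaction (0.032). Only the 2 groups compared turned ST8SIA1 between the birth weights on MILK (0.0071), and DESeq2's size factors turned the astrocyte correlations of B4GALNT1 (-0.058) and B3GALT4 (-0.002). Of the alternatives added after the data were seen, leaving out piglet 227 turned UGCG for diet (-0.00028), B4GALNT1 for birth weight (-0.0082), the SPTLC2 interaction (0.061), and CERS2 (0.17) and CERS6 (-0.022) between the diets in IUGR piglets. The oligodendrocyte score as a covariate turned CERS2 (-0.045), CERS6 (0.0012) and SGMS1 (-0.0028) for diet, CERS2 for birth weight (-0.0017), the SPTLC2 interaction (0.047), CERS2 between the diets in NBW piglets (-0.013) and SPTLC1 between the birth weights on VEG (-0.00036). The causes were not tested.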

Other observations

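Genes of myelin galactolipids also rose with the oligodendrocyte markers, with lower r than CERS2 (0.983), although none was in the marker list. This relation was computed for the 57 genes of the wider lists after the data had been seen, and 26 passed on Pearson's r (adjusted permutation p under 0.05 over 57 genes), 20 positive and 6 negative. Of these, CERT1, SGMS2 and SMPD1 did not pass on rho (adjusted permutation p = 0.0682, 0.108 and 0.169). The smallest r that passed was 0.396 in size, which 19.9% of all genes tested reached, the markers left out. It was that of SMPD1, whose r was 0.099 without the 2 piglets farthest from the median score. UGT8, which makes galactosylceramide, had r = 0.971, GAL3ST1, which makes sulfatide from it, r = 0.936, and FA2H, which hydroxylates their fatty acids, r = 0.933. GALC and ARSA, the lysosomal enzymes that break down galactosylceramide and sulfatide, had r = 0.848 and 0.68, and GLTP, a glycolipid transfer protein, r = 0.859. Within groups r fell to 0.731 for GAL3ST1 and 0.704 for GALC in MILK-NBW, and to 0.741 for FA2H in MILK-IUGR. High values were not limited to galactolipid genes, since ST6GALNAC3 and ST6GALNAC5 of the glycolipid synthesis list had r = 0.787 and 0.521. The lowest values were those of B4GALT6, a lactosylceramide synthase (r = -0.731), SMPD4, a neutral sphingomyelinase (-0.534), and ST8SIA3, a sialyltransferase of neurons (-0.529). B4GALT5, which makes the same product as B4GALT6, had r = 0.512.

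The VEG piglets differed more from each other than the MILK piglets in some genes. For CERS6 the mean absolute deviation of log2 CPM from the group median was 0.179 in VEG and 0.069 in MILK (permutation test with 20000 permutations, unadjusted p = 0.00085, adjusted p = 0.919 over 15356 genes), and for SPTLC2 it was 0.173 and 0.072 (unadjusted p = 0.00375, adjusted p = 0.919). SPTLC1 was the other way round, at 0.075 and 0.138 (unadjusted p = 0.0506). Of all genes 64.9% had the wider spread in VEG, 4.7% had an unadjusted p under 0.05 and 0 passed the adjustment. Without piglet 227 the p was 0.00665 for CERS6 and 0.0403 for SPTLC2. This comparison was chosen after the data had been seen.

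Of the 30 genes most alike to the 10 genes, 28 had a position, and 4 of them lay on the chromosome of their gene, while on average 6.25% of 11736 genes with a position did. Whether 4 of 28 exceeds that share was not tested, and 2 of the 4 belong to SPTLC2. RAD51B and RDH11 lie on chromosome 7 at 8.24 and 9.09 Mb from SPTLC2, RASSF8 on chromosome 5 at 3.36 Mb from ST8SIA1, and LSM2 on chromosome 7 at 5.73 Mb from B3GALT4.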
